A study of Mus musculus with 6 samples.

Results

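The interleukins and their receptors were measured on Illumina bead arrays in RNA of the whole heart of C57Bl6 male mice. The genes were all those whose symbol in the platform annotation starts with Il and a digit, which takes in secreted ligands, receptor chains, inhibitors and decoys (Il1rn, Il18bp, Il1r2) and the enzyme Il4i1. Il8rb, which is a chemokine receptor under an old name, was left out. These were 77 of 19057 genes with a symbol, read by 130 of 45281 probes, and 33 of the 77 had a probe detected on at least 3 of the 6 arrays. Il1rl1, which encodes the receptor chain that binds IL-33, and Il2rg, the common gamma chain, were not analysed here.

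The study compared 3 arrays of uninjured wild type hearts with 3 arrays of wild type hearts taken 72 h after ischemia-reperfusion (IR). In the IR group the left anterior descending coronary artery was tied for 90 min and then reopened, under ketamine and pentobarbital anaesthesia with the chest open. The labels say that the control mice had no operation, but the column names of the signal table call those arrays sham. The group is called uninjured here, and if no operation was done, effects of surgery and of the artery's closure and reopening cannot be told apart. Nothing says that each array came from a separate mouse, so the p-values here reflect the scatter among these arrays, which could be technical.

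Interleukins are secreted proteins through which leukocytes and tissue cells signal to each other, and each acts on cells that carry its receptor chains. IL-1 family ligands signal through Myd88 and Irak kinases to NF-kB, whereas most other interleukins act through Jak kinases and Stat factors. In the injured heart, IL-1 beta is known as an early driver of inflammation, IL-33 as a signal released by damaged or stressed cells, and IL-6 and IL-11 as ligands that act through the shared chain gp130.

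Of the 33 measured genes, 18 rose after IR and 7 fell, by limma's moderated test with Benjamini-Hochberg adjusted p-values under 0.05 over all 10204 genes tested. The injury changed much of the transcriptome, and 73.9% of all genes tested passed, with 39.4% rising and 34.5% falling. The genes that rose by at least 2-fold in the fit were Il33, Il7r, Il1b, Il1r2, Il18, Il1rn, Il10ra, Il3ra and Il6, where 15.0% of all genes tested rose as far. The bound for Il6, which was undetected in uninjured hearts, was below 2-fold. Those that fell as far were Il15, Il15ra, Il17d and Il17rd, where 13.6% of all genes did. The median log2 fold change of the 33 genes was 0.50, against 0.05 over all genes tested, and 0.31 against 0.03 with genes undetected in a group set at their bound. A gene detected in the IR hearts alone could enter this count only by being higher there, so the count gives no support for a direction of the whole family.

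**Figure D1:**
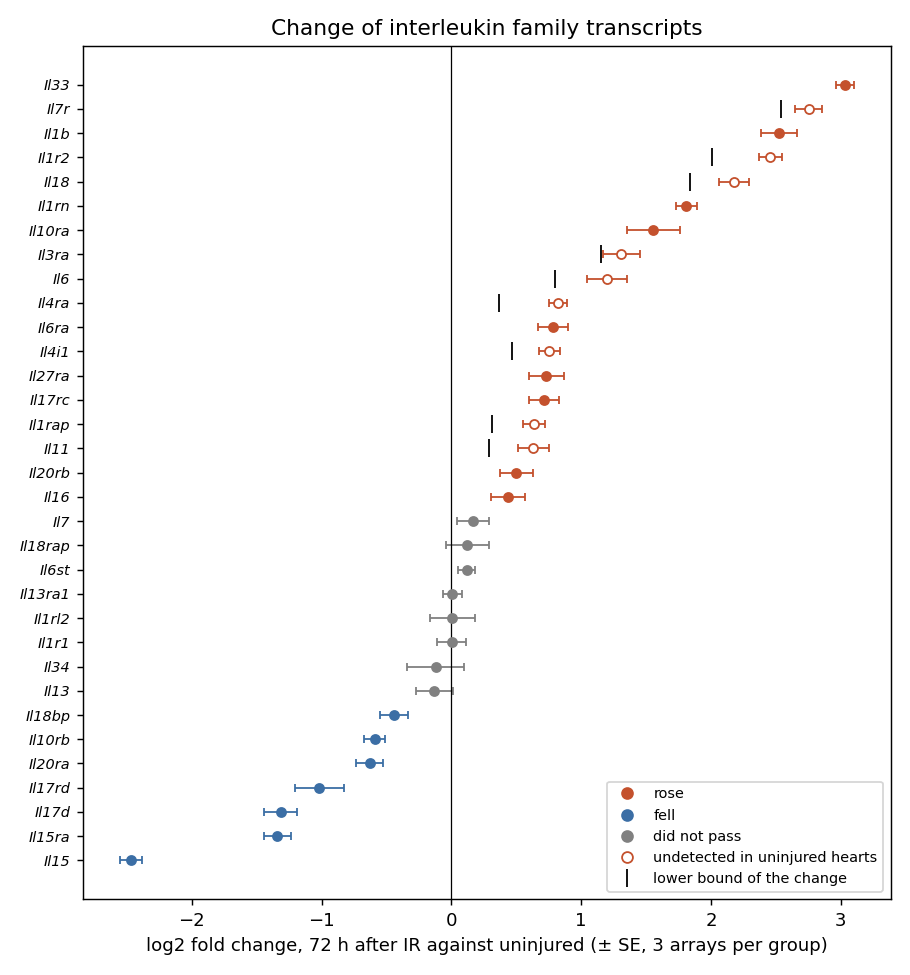
Log2 fold change (horizontal axis, ± SE, 3 arrays per group) of the 33 measured interleukin family genes, 72 h after IR against uninjured hearts. Genes run from Il33 at 3.03 to Il15 at -2.47. Open points mark genes undetected on all uninjured arrays, and ticks give the lower bound of their change under the main normalization. Under other scalings the sign turned for Il18bp, Il20rb and 7 genes that did not pass the test.

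Detection set what could be compared. Detection of a gene required 1 probe, kept or not, with a deposited detection p-value under 0.05, a value that ranks the signal among the negative controls of the same array. By this measure 48 of the 77 genes were detected on at least 1 array and 13 on all 6. All 3 IR arrays detected 29 of the genes and all 3 uninjured arrays 15. At a stricter detection p-value of 0.01 these became 23 and 12, and 40 genes were detected on no array, against 29 at 0.05. A threshold of 0.05 lets some signals at the level of the negative controls pass, more readily for genes with several probes. The arrays themselves differed in the same direction, with 15891 to 17843 probes detected in uninjured and 18013 to 19243 in IR hearts, and the part this played was not tested.

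Among 36 ligands, 10 were detected on all 3 IR arrays, 4 on all 3 uninjured arrays and 20 on none of the 6. Among 34 receptor chains, 15 were detected on all 3 IR arrays, 10 on all 3 uninjured arrays and 7 on none. The ligands found on no array were Il1a, Il1f6, Il1f8, Il1f9, Il2, Il3, Il4, Il5, Il9, Il12a, Il17a, Il17b, Il17c, Il17f, Il19, Il20, Il22, Il25, Il27 and Il31. They include Il4 and Il5, cytokines of type 2 T helper cells, and Il17a and Il17f, of Th17 cells, while Il13, also of type 2 cells, was detected on 2 arrays of each group. The receptors found on no array were Il1rapl1, Il1rapl2, Il2ra, Il9r, Il12rb1, Il12rb2 and Il23r, and the inhibitors found on none were Il1f5 and Il22ra2. A signal within the range of the negative controls does not show that a transcript was absent.

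A further 15 genes were detected on some arrays but by no probe on 3 or more. Il10, the main anti-inflammatory interleukin, was detected on 2 of 3 IR arrays and no uninjured array, as were Il17ra, the shared chain of IL-17 receptors, and Il24. Detected on 1 IR array alone were Il2rb, Il5ra, Il17rb, Il18r1 and Il21r, and on 1 uninjured array alone Il1f10, Il21, Il23a and Il31ra. Il13ra2 and Il22ra1 were found on 1 array of each group. Il17re was found on all 3 uninjured arrays and no IR array, through different probes. Of the genes filed here under the IL-12 family, which links antigen presenting cells to T cells, none could be compared (0 of 5). Il27 and Il27ra, which are also placed in that family, are counted here with the gp130 family.

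**Figure D2:**
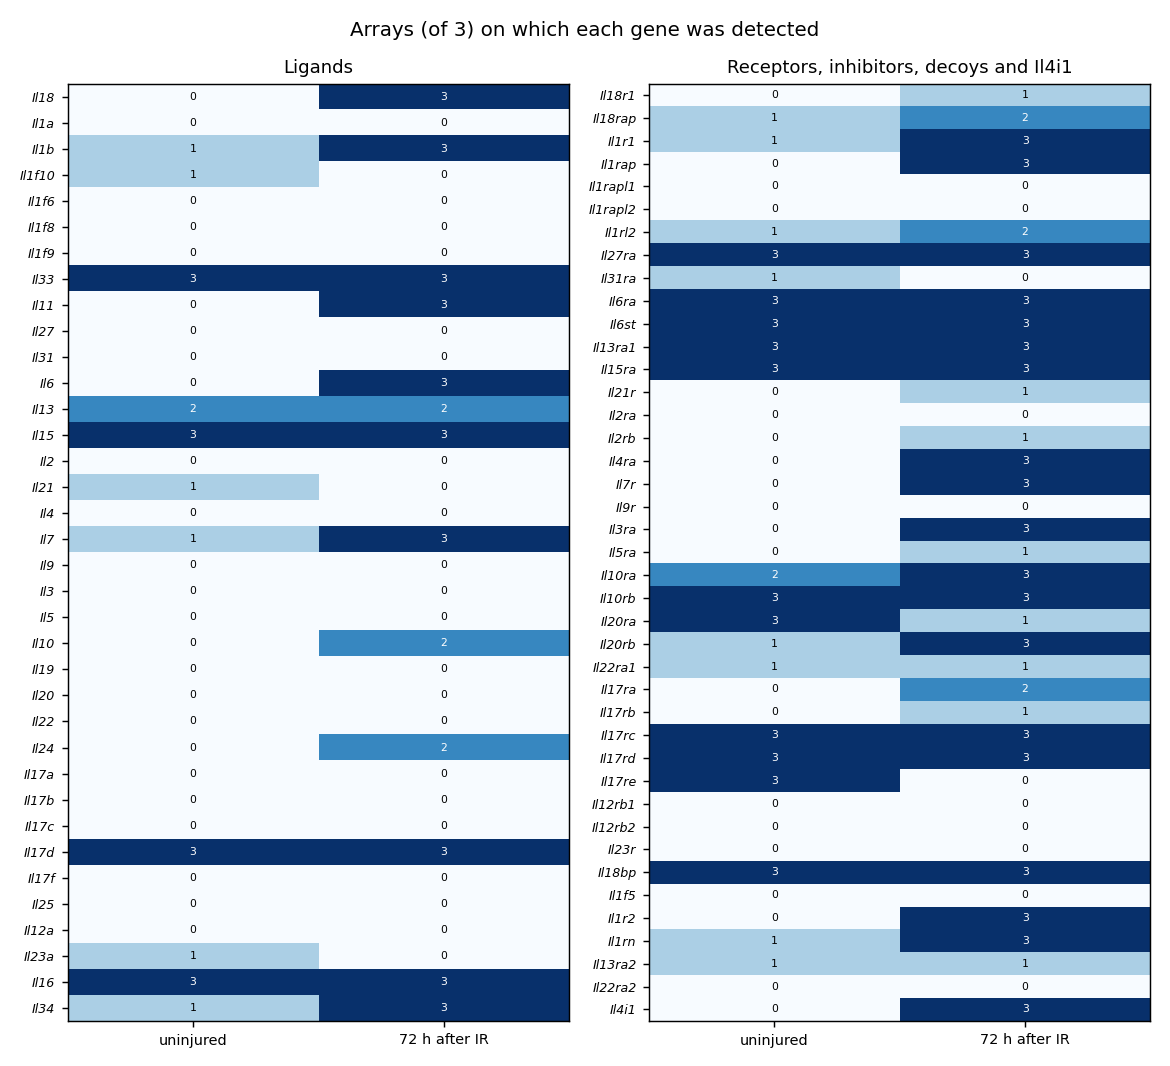
Number of arrays, of 3 in each group, on which each of the 77 genes was detected by any probe at a detection p-value under 0.05, with ligands in the left panel and receptors, inhibitors, decoys and Il4i1 in the right. All 3 IR arrays detected 29 genes and all 3 uninjured arrays 15, and 29 genes were detected on no array.

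The promoters of the genes with the largest rises, of Il6 as a classic NF-kB target, and of Il15ra among those that fell show what sequence these genes carry upstream of their start. RefSeq windows of build GRCm38.p6 were searched on both strands for an NF-kB-like motif (GGG and TCC with 4 bases between them), a Stat-like motif (TTCNNNGAA), an AP-1-like motif (TGANTCA) and a PU.1-like motif (GAGGAA). The windows hold 250 bases before the start and 50 after it. The 250 bases before the start are shown 5' to 3' on the strand of the gene, with motif matches in capitals. They lie at chr19:29924863-29925112 (plus strand) for Il33, chr2:129371140-129371389 (minus) for Il1b, chr1:40085843-40086092 (plus) for Il1r2, chr15:9529877-9530126 (minus) for Il7r, chr5:30012864-30013113 (plus) for Il6 and chr2:11705043-11705292 (plus) for Il15ra, the latter from the first of its windows.
Il33: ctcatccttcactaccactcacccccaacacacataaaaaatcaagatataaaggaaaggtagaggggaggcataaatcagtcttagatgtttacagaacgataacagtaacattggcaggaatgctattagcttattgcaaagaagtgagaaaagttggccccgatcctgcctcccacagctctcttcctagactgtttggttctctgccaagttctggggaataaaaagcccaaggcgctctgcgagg
Il1b: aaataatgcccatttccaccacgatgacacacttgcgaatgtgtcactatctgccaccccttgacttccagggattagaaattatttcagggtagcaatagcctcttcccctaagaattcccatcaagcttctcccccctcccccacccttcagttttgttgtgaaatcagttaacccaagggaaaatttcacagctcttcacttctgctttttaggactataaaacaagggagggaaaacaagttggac
Il1r2: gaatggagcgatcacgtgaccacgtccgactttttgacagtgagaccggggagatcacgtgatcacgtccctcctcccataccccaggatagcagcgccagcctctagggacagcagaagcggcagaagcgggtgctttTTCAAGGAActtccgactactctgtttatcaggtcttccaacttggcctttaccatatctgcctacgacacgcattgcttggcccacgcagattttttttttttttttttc
Il7r: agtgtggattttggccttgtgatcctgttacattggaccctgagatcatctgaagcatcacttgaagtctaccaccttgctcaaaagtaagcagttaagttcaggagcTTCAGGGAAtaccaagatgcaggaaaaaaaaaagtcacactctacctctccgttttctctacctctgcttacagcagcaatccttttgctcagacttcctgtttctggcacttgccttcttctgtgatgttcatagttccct
Il6: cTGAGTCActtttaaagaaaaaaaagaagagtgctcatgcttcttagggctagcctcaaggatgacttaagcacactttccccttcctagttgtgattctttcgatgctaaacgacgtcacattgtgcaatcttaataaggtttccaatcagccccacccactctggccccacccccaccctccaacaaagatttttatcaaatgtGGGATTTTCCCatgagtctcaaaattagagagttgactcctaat
Il15ra: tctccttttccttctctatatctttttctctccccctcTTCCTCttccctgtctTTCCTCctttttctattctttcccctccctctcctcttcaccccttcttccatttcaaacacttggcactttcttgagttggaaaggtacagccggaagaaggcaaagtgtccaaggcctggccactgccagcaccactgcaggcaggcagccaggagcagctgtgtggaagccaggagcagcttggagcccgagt
In the Il6 window the capitals mark an AP-1-like match 249 bases before the start and 2 overlapping NF-kB-like matches that begin 44 and 43 bases before it. Il1r2 and Il7r each held 1 Stat-like match, 111 and 142 bases before the start. The first window of Il15ra held 2 PU.1-like matches on the reverse strand. Its second window, not shown, held an NF-kB-like match 102 and an AP-1-like match 30 bases before the start. The stretches shown for Il33 and Il1b held none of the 4 motifs in full. The window of Il33 that is shown in part, the first of its 2, held 2 PU.1-like matches that end past that stretch. They begin 4 bases before the start and 2 after it. The second window of Il33, not shown, held none of the 4 motifs. Of the 18 genes that rose, 16 had at least 1 window. The NF-kB-like motif was in 9 of their 22 windows (40.9%), against 19.2% of all 32851 windows. By gene, it was in 7 of the 16, and a share by gene over all windows was not counted. Windows 2 and 3 of Il1rn overlap and hold the same match, at 29 bases after and 51 bases before their starts. The 40.9% therefore counts that site more than once. The Stat-like motif was in 2 of the 22 (9.09%, against 8.3% of all windows), the AP-1-like motif in 4 (18.2% against 7.81%) and the PU.1-like motif in 3 (13.6% against 28.3%). Among the 7 genes that fell, 5 had a window, and of their 6 windows 1 held the NF-kB-like, 1 the Stat-like, 2 the AP-1-like and 3 the PU.1-like motif. Several windows belong to the same gene, and a match of letters describes the sequence and is no evidence that a factor binds there. Il15 has no window among those used.

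Of 10 measured genes of the IL-1 family, 6 rose, 1 fell and 3 did not pass. Il33 encodes the alarmin IL-33, a nuclear protein released on cell damage. Its log2 normalized intensity was 5.78, 5.76 and 5.86 on uninjured arrays 109, 110 and 904 and 8.75, 8.84 and 8.90 on IR arrays 106, 107 and 886. The IR arrays lay close together and far above all uninjured arrays. The rise was 8.17-fold (log2 3.03 ± 0.07 SE, n = 3 and 3, limma adjusted p = 1.21e-07), the largest fitted log2 change among the 33 genes, although some others have only a lower bound.

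Il1b, which encodes the precursor of IL-1 beta, read 4.42, 4.90 and 4.67 in uninjured hearts, where only 1 of 3 arrays detected it, and 7.13, 7.07 and 7.36 in IR hearts. The groups did not overlap, and the rise was 5.75-fold (log2 2.52 ± 0.14 SE, limma adjusted p = 2.45e-06). Il18, the other member of the family that caspase-1 matures, read 4.62, 4.36 and 4.39 in uninjured and 6.60, 6.82 and 6.49 in IR hearts. Its probe was undetected on every uninjured array, so the rise has only a bound, at least 3.58-fold (limma adjusted p = 2.07e-06). A second Il18 probe rose less, by 0.55 ± 0.07 on the log2 scale (limma adjusted p = 0.000254 over kept probes). For this and every other gene undetected in a group, the bound sets the IR mean against the dimmest detected probe of each uninjured array, or the gene's own value where that was higher. Such a gene was kept through its IR arrays alone, so neither its p-value nor the separation of its groups is separate support for a rise. The bounds hold only under the main normalization. Without background correction the log2 change of Il18 was 0.95, under its bound of 1.84.

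Of the 3 inhibitors and decoys of the family that were measured, 2 rose and 1 fell. Il1r2 encodes a decoy receptor that binds IL-1 without signalling, and read 4.31, 4.30 and 4.43 in uninjured and 6.87, 6.65 and 6.89 in IR hearts. It was undetected in the former and rose at least 4.03-fold (limma adjusted p = 3.99e-07). Il1rn, the receptor antagonist, read 4.32, 4.39 and 4.36 against 6.02, 6.26 and 6.22. Every IR array lay above every uninjured array for both genes, whose probes here were kept through the IR arrays alone. The rise of Il1rn was at least 2.59-fold by this probe, which no uninjured array detected (limma adjusted p = 1.09e-06), and a second kept probe gave at least 2.63-fold. An Il1rn probe left out of the comparison was detected on 1 uninjured array. Il18bp, the secreted binding protein that neutralises IL-18, was 5.40, 5.62 and 5.80 in uninjured and 5.23, 5.09 and 5.17 in IR hearts. It fell by 0.44 ± 0.11 on the log2 scale (limma adjusted p = 0.00804), although scaling to the median of all probes turned this to 0.04.

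Among the 4 measured receptor chains that signal for this family, 1 rose. Il1rap, the accessory chain shared by the receptors for IL-1 and IL-33, was undetected in uninjured hearts (4.48, 4.48 and 4.45) and read 5.19, 5.19 and 4.94 after IR, at least 1.24-fold higher (limma adjusted p = 0.000327). All 4 of its kept probes were higher after IR, by 0.36 to 0.68 on the log2 scale. With scaling to the median of kept probes the Il1rap difference was 0.13 and did not pass. Il1r1, the signalling receptor for IL-1, read 5.07, 4.67 and 4.84 against 4.94, 4.89 and 4.75. Its groups overlapped, the log2 difference was 0.0020 ± 0.11 (limma adjusted p = 0.988) and its sign turned under other settings, passing as lower (-0.43) with scaling to the median of kept probes. Il18rap, the accessory chain of the IL-18 receptor (0.12 ± 0.17), and Il1rl2, the receptor for IL-36 (0.0082 ± 0.17), also had overlapping groups and did not pass, but under the same scaling both passed as lower, at -0.48 and -0.53.

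The machinery that matures IL-1 beta and IL-18 was read from 10 other genes, of which 8 were measured, 6 rose and 1 fell by the same limma test and threshold, which also apply to the other partner genes and markers, where 39.4% of all genes tested rose and 34.5% fell. One of the 6, Nlrc4, named after its values were seen, was undetected in uninjured hearts, and its bound gives no rise. Casp1, the protease that cleaves both precursors, rose by 2.18 ± 0.12 on the log2 scale. Casp4, the mouse inflammatory caspase that responds to intracellular endotoxin, rose by 2.05 ± 0.11, and Gsdmd, whose product forms the pores through which IL-1 beta leaves cells, by 1.56 ± 0.09. Txnip, which binds thioredoxin, fell by 1.02 ± 0.18. Of 12 genes of IL-1 and IL-18 receptor signalling, 11 were measured, 3 rose and 4 fell. Those that rose were the adaptor Myd88 (1.74 ± 0.09), the inhibitory kinase family member Irak3 (1.35 ± 0.12) and the kinase Irak2 (0.82 ± 0.08). The largest falls were in the kinase Irak1 (-0.67 ± 0.07), the inhibitor Tollip (-0.49 ± 0.07) and the Tak1 binding protein Tab3 (-0.44 ± 0.07). With scaling to the median of all probes Irak1 gave -0.06, Tollip turned to 0.10 and Tab3 to 0.21, and none of the 3 passed.

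In the family that signals through gp130, 4 of 5 measured genes rose. Il6, the founding ligand, was undetected in uninjured hearts (4.47, 4.36 and 4.35) and read 5.25, 5.88 and 5.65 after IR. The rise was at least 1.74-fold (limma adjusted p = 0.000251). Il11, a ligand known to act on cardiac fibroblasts, was also undetected in uninjured hearts (4.65, 4.48 and 4.22) and read 5.01, 5.19 and 5.05 after IR, at least 1.22-fold higher (limma adjusted p = 0.00189), although with scaling to the median of kept probes its log2 difference was 0.13 and did not pass.

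Of the 3 receptor chains that pair with gp130 or its relatives here, Il6ra and Il27ra rose and Il31ra was not measured. Il6ra, which binds IL-6, read 5.76, 5.36 and 5.54 in uninjured and 6.32, 6.45 and 6.23 in IR hearts and rose by 0.78 ± 0.12 on the log2 scale (limma adjusted p = 0.000581). Its other kept probes gave 0.73 and 0.47. Il27ra, the chain for IL-27, read 5.43, 5.52 and 5.01 against 5.99, 6.07 and 6.09, a rise of 0.73 ± 0.14 (limma adjusted p = 0.00184). Neither gene's groups overlapped. Il6st, which encodes gp130 itself, read 8.48, 8.38 and 8.45 against 8.54, 8.57 and 8.57. Its IR arrays all lay above the uninjured arrays, but the difference of 0.12 ± 0.06 did not pass (limma adjusted p = 0.132). It did pass, at 0.71, with scaling to the median of all probes.

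**Figure D3:**
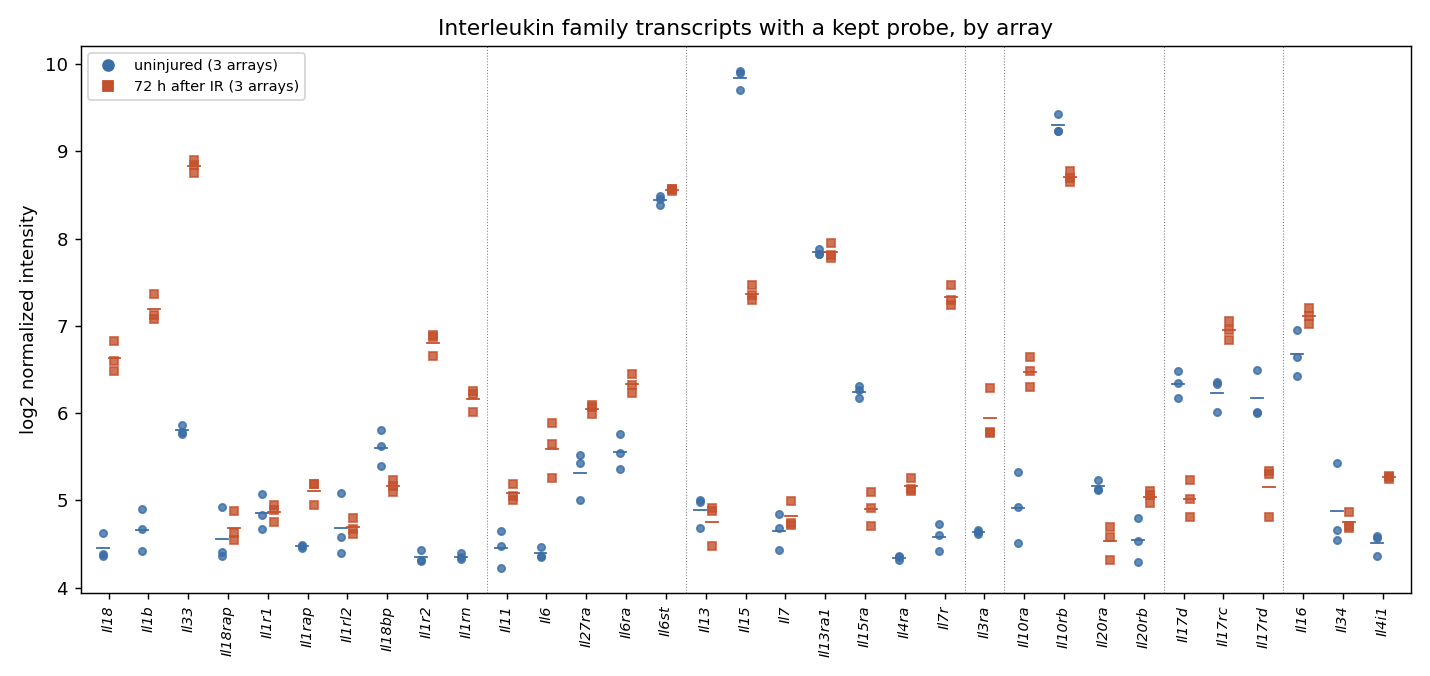
Log2 normalized intensity (vertical axis) of each measured interleukin family gene on the 3 uninjured and 3 IR arrays. In 19 genes every IR array lay above every uninjured array, in 7 every IR array lay below, and in 7 the groups overlapped. For 10 of the 33 genes the probe used was detected on no uninjured array and was kept through the IR arrays alone.

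Across the 33 genes, every IR array lay above every uninjured array in 19 and below in 7, and the groups overlapped in the other 7. For 10 of the 33 the probe used was detected on no uninjured array. Those were kept through the IR arrays alone, so a place above was nearly set in advance. The count therefore gives no support for a direction of the family. Over all genes tested 40.7% had the IR arrays above and 35.9% had them below, as the plot of values by array shows for the interleukin genes.

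IL-15 and its receptor fell together. Il15, the ligand that sustains natural killer cells and memory T cells and is known as a cytokine of striated muscle, read 9.92, 9.70 and 9.89 in uninjured and 7.35, 7.46 and 7.30 in IR hearts. All 3 IR arrays lay far below the uninjured arrays, and the fall was 5.53-fold (log2 -2.47 ± 0.09 SE, limma adjusted p = 3.97e-07). A second Il15 probe gave -2.61 (limma adjusted p = 5.75e-07), while the remaining kept probe fell by 0.38 (limma adjusted p = 0.0361). Il15ra, the chain that presents IL-15 to neighbouring cells, read 6.17, 6.31 and 6.26 in uninjured and 5.09, 4.92 and 4.71 in IR hearts, a fall of 2.53-fold (log2 -1.34 ± 0.11 SE, limma adjusted p = 1.87e-05). Its 3 other kept probes fell by 1.30, 0.53 and 0.49 on the log2 scale. With Il7r and Il4ra below, these are the genes of the common gamma chain family and its IL-13 relatives that changed, 2 rising and 2 falling among 7 measured of 16.

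Il7r, the IL-7 receptor chain that marks lymphocytes and is also made by some tissue macrophages, was undetected in uninjured hearts (4.60, 4.41 and 4.73) and read 7.24, 7.30 and 7.47 after IR. The rise was at least 5.82-fold (limma adjusted p = 5.02e-07). It rests on 1 of the gene's 5 probes, and the 4 others were undetected on all arrays. Its ligand Il7 read 4.43, 4.84 and 4.68 in uninjured and 4.74, 4.99 and 4.72 in IR hearts, with overlapping groups and no call (0.17 ± 0.13, limma adjusted p = 0.262), but scaling to the median of kept probes turned this to -0.35, which passed as lower. Il4ra, the chain through which IL-4 and IL-13 act, was undetected in uninjured hearts (4.36, 4.32 and 4.35) and read 5.11, 5.25 and 5.13 after IR, at least 1.29-fold higher (limma adjusted p = 2.23e-05). The groups of Il13 and of its receptor chain Il13ra1 overlapped. The log2 difference was -0.13 ± 0.14 for Il13 and 0.0082 ± 0.07 for Il13ra1. Neither passed (limma adjusted p = 0.429 and 0.924), but the calls depended on scaling. With the median of kept probes Il13 passed as lower (-0.60), and with the median of all probes Il13ra1 passed as higher (0.62), while the opposite scaling turned the sign of each.

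**Figure D4:**
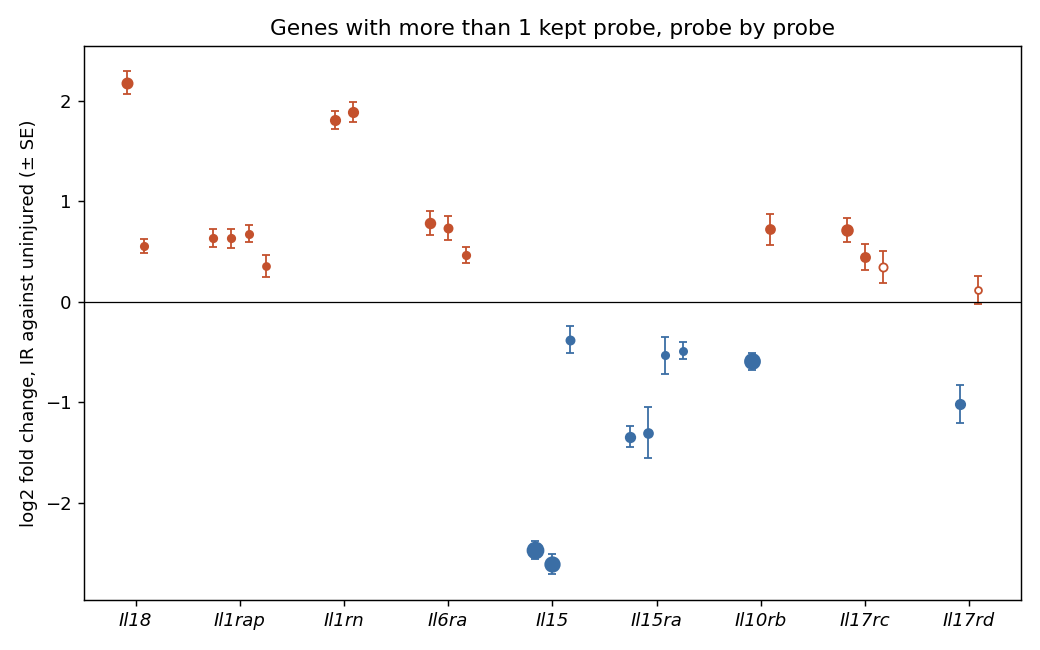
Log2 fold change (vertical axis, ± SE, 3 arrays per group) of each kept probe for the 9 genes with more than 1 kept probe. The probes of Il10rb were called in opposite directions, and those of Il15 and Il18 differed in size.

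Probes of 1 gene can read different transcripts, as the plot of single probes shows. Of the 49 kept interleukin probes, 27 rose, 12 fell and 10 did not pass, beside 36.8% rising and 33.3% falling among all kept probes with a symbol. Of the 9 genes with more than 1 kept probe, only Il10rb had probes called in opposite directions. In the IL-10 family, Il10ra, the chain specific to IL-10, read 4.51, 5.33 and 4.92 in uninjured and 6.48, 6.64 and 6.30 in IR hearts. It was detected on 2 of 3 uninjured arrays and rose 2.94-fold (log2 1.56 ± 0.20 SE, limma adjusted p = 0.00027), with no overlap between groups. The probe chosen for Il10rb, the shared second chain, read 9.23, 9.23 and 9.42 against 8.77, 8.65 and 8.69 and fell by 0.59 ± 0.08 (limma adjusted p = 0.000337), whereas its other kept probe rose by 0.72 ± 0.15 (limma adjusted p = 0.00383) and the mean of both gave 0.06. Scaled to the median of all probes, the chosen probe gave -0.06 and did not pass. The direction for Il10rb therefore depends on the probe.

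The receptor chains for IL-20 subfamily cytokines, which act mainly on epithelia, moved in opposite directions. Il20ra read 5.23, 5.12 and 5.12 in uninjured and 4.31, 4.58 and 4.70 in IR hearts, where 1 of 3 arrays detected it. It fell by 0.63 ± 0.11 on the log2 scale (limma adjusted p = 0.0012). Il20rb read 4.54, 4.80 and 4.29 against 4.97, 5.10 and 5.06 and rose by 0.50 ± 0.13 (limma adjusted p = 0.00893), but with scaling to the median of kept probes its difference was -0.0037.

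In the IL-17 family the ligand Il17d, which unlike Il17a is made mainly outside the immune system, read 6.34, 6.17 and 6.49 in uninjured and 4.81, 5.23 and 5.01 in IR hearts. Every IR array lay below the uninjured arrays, and the fall was 2.49-fold (log2 -1.32 ± 0.13 SE, limma adjusted p = 5.66e-05). Il17rd, a receptor-like protein also known as Sef that restrains FGF signalling, read 6.01, 6.00 and 6.49 against 4.81, 5.31 and 5.34 and fell by 1.02 ± 0.19 on the log2 scale (limma adjusted p = 0.00182). Its other kept probe gave 0.12 and did not pass (limma adjusted p = 0.476 over kept probes). Il17rc, which pairs with Il17ra to bind IL-17A and IL-17F, read 6.01, 6.35 and 6.34 against 7.06, 6.95 and 6.84 and rose by 0.71 ± 0.11 (limma adjusted p = 0.000822), and its other kept probes gave 0.44 with a call and 0.35 without. Neither receptor gene's groups overlapped.

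Among the remaining genes, Il3ra, the IL-3 receptor chain, was undetected in uninjured hearts (4.66, 4.62 and 4.63) and read 5.78, 6.29 and 5.77 after IR. It rose at least 2.22-fold (limma adjusted p = 9.97e-05). Il4i1, a secreted L-amino acid oxidase induced by IL-4, was also undetected in uninjured hearts (4.37, 4.56 and 4.59) and read 5.26, 5.28 and 5.24 after IR, at least 1.38-fold higher (limma adjusted p = 8.75e-05). Il16, a chemoattractant for cells that carry CD4, read 6.64, 6.95 and 6.43 against 7.11, 7.20 and 7.02 and rose by 0.44 ± 0.13 on the log2 scale (limma adjusted p = 0.0196). That call was lost without uninjured array 109 (0.42), IR array 106 (0.44) or IR array 107 (0.39). Il34, a ligand of the receptor encoded by Csf1r, had overlapping groups and did not pass (-0.12 ± 0.22, limma adjusted p = 0.640). Uninjured array 904 read 5.42 for Il34 where the other 5 arrays read 4.54 to 4.87, and without it the difference was 0.17. With scaling to the median of kept probes Il34 passed as lower (-0.56), and with the median of all probes its difference was 0.10.

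Most of these receptors act through Jak kinases and Stat factors, a list of 22 genes with 17 measured, of which 6 rose and 4 fell. The largest rises were in the phosphatase Ptpn6 (3.00 ± 0.11 on the log2 scale), the feedback inhibitor Socs3 (2.74 ± 0.11) and Stat2 (0.92 ± 0.24). The largest falls were in the feedback inhibitor Cish (-1.42 ± 0.08), in Stat5a (-0.98 ± 0.08) and in Socs2 (-0.51 ± 0.12), of which Socs2 did not pass with scaling to the median of all probes (-0.09). Socs3 is known as a feedback inhibitor at gp130, while Cish and Socs2 are known targets of Stat5.

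A further 20 cytokines and receptor chains belong to the same families under other names, of which 11 were measured, 6 rose and 3 fell. Csf2ra, the GM-CSF receptor chain, rose by 2.00 ± 0.08 on the log2 scale. Csf2rb2, the mouse beta chain that pairs with Il3ra for IL-3, was undetected in uninjured hearts and rose at least 1.88-fold. Osmr, the oncostatin M receptor that pairs with gp130, rose by 1.64 ± 0.14. Those that fell were Ctf1, which encodes the gp130 ligand cardiotrophin-1 (-2.12 ± 0.13), Lifr, the LIF receptor (-1.19 ± 0.08), and Ifnlr1, the interferon lambda receptor (-0.55 ± 0.14). Scaling to the median of all probes left Ifnlr1 at -0.03 without a call. Csf1r, the receptor for Il34, rose by 1.13, and Ebi3, the partner chain of IL-27, by 0.85. Over all 64 partner genes, 47 were measured, 21 rose and 12 fell, with a median log2 fold change of 0.27. Over all genes tested 39.4% rose and 34.5% fell, with a median of 0.05.

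**Figure D5:**
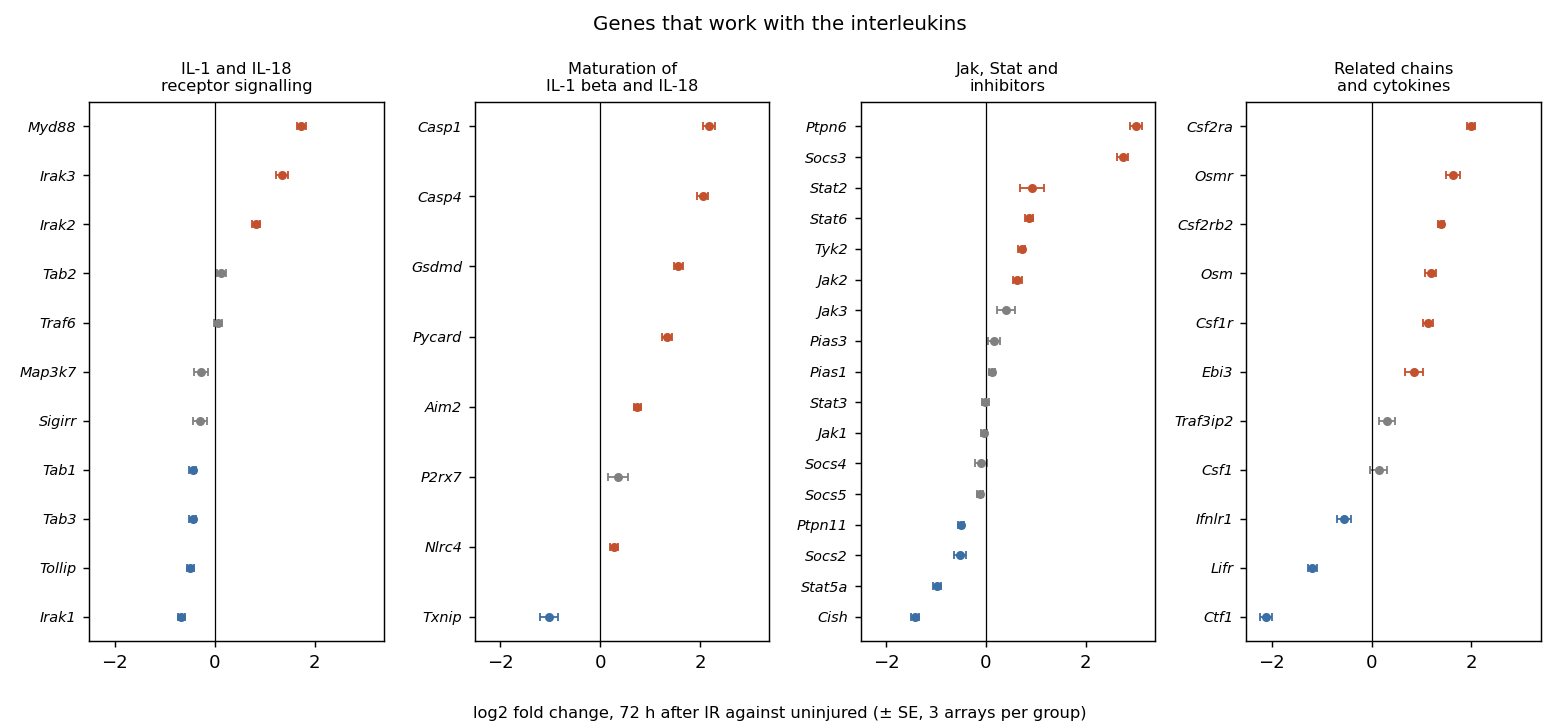
Log2 fold change (horizontal axis, ± SE, 3 arrays per group) of the measured partner genes in 4 lists, 72 h after IR against uninjured hearts. Of 47 measured genes 21 rose and 12 fell. With scaling to the median of all probes Tollip and Tab3 changed sign and did not pass.

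Markers of leukocytes and of heart cells were read beside these genes. Of 12 macrophage markers 11 were measured and all 11 rose, and their summed log2 level went from 11.42 to 11.65 in uninjured to 14.21 to 14.33 in IR hearts. Of 10 neutrophil markers 6 were measured and all 6 rose (summed level 6.95 to 7.35 against 11.31 to 11.95). Ngp, Camp and Ltf were detected on no array, and Elane on 1 uninjured array. Fibroblast markers rose in 7 of 8 (13.11 to 13.15 against 13.81 to 13.83). Of these, Postn was undetected in uninjured hearts, and its bound gives no rise. Also undetected there were Itgam among the macrophage markers and Mpo, Retnlg and Cxcr2 among the neutrophil markers. Their rises were at least 1.05-, 1.05-, 1.14- and 2.85-fold. Cardiomyocyte markers fell in 6 of 7 measured of 8 listed (15.81 to 15.88 against 14.65 to 14.71). The 7 interleukin genes that fell share this direction, as do 34.5% of all genes tested. In whole hearts, fewer cells of a type and less RNA per cell cannot be told apart, and the part of cell make-up in any interleukin result was not tested.

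Few T cell and innate lymphoid cell markers could be measured. Of 9 T cell markers 2 were measured. Cd8b1 rose by 0.22 and Cd3d gave 0.20 without a call (summed level 8.39 to 8.58 against 8.68 to 8.72). Cd3e, Cd4 and Cd8a were detected on no array. Cd3g was detected on 2 IR arrays and Cd247 on 1, and neither on an uninjured array. Of 9 markers of group 2 innate lymphoid cells and eosinophils, cells on which IL-33 is known to act, 2 were measured. Rora fell by 1.14 on the log2 scale and Arg1, which macrophages also make, was undetected in uninjured hearts and rose at least 43.2-fold (summed level 7.60 to 7.85 against 10.02 to 10.51). Siglecf, Epx and Prg2 were detected on no array, Gata3 and Ccr3 each on 1 uninjured array, and Klrg1 on 1 array of each group. Mast cell markers rose in 3 of 6 measured of 8 (7.73 to 8.03 against 8.31 to 8.57). Endothelial markers rose in 1 and fell in 2 of 5 measured of 6 (10.96 to 11.07 against 10.94 to 10.98).

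The sizes of change depend on background correction for dim genes. Without it, 22 of the 25 changed genes kept their direction with a log2 change over 1.5 times smaller, such as 1.22 for Il1b and 1.35 for Il7r. Il33, at 2.08 against 3.03, shrank by less than that. With scaling to the median of all probes in place of quantiles, the median change over all genes tested was 0.52 (log2), and with the median of kept probes it was -0.14. The shares of called genes that rose were then 77.5% and 42.7%, against 53.3% with quantiles, and among the interleukin genes 20 rose and 5 fell, or 15 rose and 13 fell.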

How the data were processed

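Total RNA was biotin-labelled and hybridised to Illumina mouse bead arrays, 1 per sample, per the labels' protocols. The deposited intensity table gives mean bead signals of 45281 probes and the deposited detection p-values, per the file headers, with no sign in the values of background subtraction or normalization. The authors' software was GenomeStudio 2010.3, per the submitters' processing notes. The authors' processed intensities, a second deposited table with column medians of 88.4, were used as an alternative only. Signal columns name a group and an array number but no replicate. Each of the authors' 6 columns ranked the probes as 1 signal column of its group did (lowest Spearman's rho 1).

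Values came from R 4.3.3 with the packages limma 3.58.1 and statmod 1.5.0. Background correction (normexp), an offset of 16, quantile normalization and log2 were applied by neqc. Probes with a detection p-value under 0.05 on at least 3 arrays were kept (18197), and a gene took its kept probe with the highest mean. Of all probes 34885 had 1 symbol in the platform annotation, which can be old, 18 had several and 10378 had none. Groups of 3 arrays were compared with lmFit and eBayes, without a block, and Benjamini-Hochberg adjustment over 10204 genes. Folds include the offset of 16 and so understate changes of dim genes, and the number of arrays limits the precision. Normalization, the detection filter, the choice of probe and the limma fit were tested together on simulated data. Few genes changed there, unlike here, so quantile normalization was not tested under a change this broad. The bounds, summed marker levels, motif search and alternative scalings were not simulated.

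The interleukin genes, partner lists and markers were chosen with earlier results of these data known. Every measured interleukin gene is named, with the 3 largest changes in each direction per partner list, the partners of genes described, and markers. Values of different probes are not compared in level, apart from the summed marker levels, which are log2 of summed linear values. Each sum therefore follows its brightest probes, such as that of Dcn among fibroblast markers (mean 12.88 in uninjured and 12.89 in IR hearts). Alternatives covered background, offset, scaling, filters, probes, left-out arrays, a robust fit, the authors' values and the replicate block.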

Additional observations from a re-analysis of the deposited data

How the results depend on the processing

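Of the 25 changed interleukin genes, 19 kept direction and call in every alternative that fitted them singly, leaving aside the minimum of 2-fold and the detection filter applied anew, which are given below as counts. One of the 19, Il20ra, was not tested at the detection p-value of 0.01. Scaling gave the main exceptions. With the median of all probes, 33 partner genes rose and 5 fell. Log2 differences became 0.037 for Il18bp, 0.063 for Il13, 0.10 for Il34, 0.10 for Tollip and 0.21 for Tab3, none of which passed. With the median of kept probes, 13 interleukin genes fell, among them Il13 at -0.60 and Il34 at -0.56. Passing as lower too, after a change of sign, were Il18rap at -0.48, Il1r1 at -0.43, Il1rl2 at -0.53 and Il7 at -0.35, whereas Il13ra1 (-0.037) and Il20rb (-0.0037) turned without passing. An offset of 50 gave -0.00076 for Il1r1 and -0.0031 for Il1rl2. The mean of kept probes gave 0.063 for Il10rb. The 4 arrays with consecutive numbers (106, 107, 109 and 110) gave 0.068 for Il13, 0.18 for Il34 and -0.10 for Il1rl2, and Il16 (0.36) and Stat2 (0.80) lost their calls there. The cause of these differences was not tested.

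At a minimum of 2-fold, 9 interleukin genes rose and 4 fell, 13 partner genes rose and 4 fell, and 2925 genes changed in all, since that rule is stricter. Leaving out 1 array at a time, 17 to 19 interleukin genes rose and 7 fell, 20 to 22 partner genes rose and 12 to 13 fell, and 7055 to 7559 genes changed. The difference then ran from -0.25 to 0.0049 for Il13, -0.043 to 0.044 for Il13ra1, -0.094 to 0.11 for Il1r1, -0.14 to 0.22 for Il1rl2 and -0.30 to 0.17 for Il34. In these fits Il18rap passed only without uninjured array 110 (0.31). In an alternative chosen after seeing the data, the detection filter was applied anew, and 7, 7 and 8 genes rose without IR arrays 106, 107 and 886, against 18 without any 1 uninjured array, because genes detected only in IR hearts then dropped out of the test.

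Replicate numbers stand only on the authors' processed columns. Same-numbered samples did not deviate together over the kept probes (correlations of -0.052, -0.00483 and -0.0755). This cannot show that they share only a number, since a weak shared effect, or one on few probes, could be missed. With the replicate block 18 interleukin genes rose, 7 fell and 7438 genes changed in all. With 3 arrays a group and many members near the negative controls, a missed call does not show that a gene did not differ.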
